A study of Collinsia rattanii with 18 samples.

Results

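RCORA02590 and RCORA68085 are 2 genes of the *C. rattanii* genome that the study listed under glycerol-3-phosphate catabolism and described as putative glycerol-3-phosphate dehydrogenases. They were taken by identifier from a count table of 46127 genes. Both had counts in all 18 libraries and both were among the 27837 genes that passed the filter on low counts. The study listed this pair because its test of species by stage passed on these same libraries, so the differences between species in stage change given here are a description of how the pair was chosen and not independent evidence. Stage changes within a species and species differences at a stage feed into that test, so they are not independent of the choice either. RNA-seq was made from whole pre-anthesis floral buds of *C. linearis*, a predominantly outcrossing annual, and of *C. rattanii*, its highly selfing sister species. Each species was represented by 3 plants drawn from 2 populations and grown to flowering at the same site, with no treatment, and each plant gave 1 library at each of the bud stages B1 (early, green petals), B2 (middle) and B3 (late). A sample was made up of 2 to 4 whole buds, so the floral organs were not measured apart. Plants were the independent units, and 3 libraries came from each.

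Glycerol-3-phosphate dehydrogenases interconvert glycerol-3-phosphate and dihydroxyacetone phosphate. Glycerol-3-phosphate is the backbone on which membrane phospholipids and storage triacylglycerols are built, and dihydroxyacetone phosphate is an intermediate of glycolysis, so the enzyme stands where lipid and sugar metabolism meet. In plants, cytosolic and plastidial forms use NAD(H), while a mitochondrial form passes electrons to ubiquinone, and the oxidation of glycerol-3-phosphate also serves the use of glycerol released from lipids. Which of these forms either gene encodes was not given in the sources used here, and neither were gene positions or other annotations. The study's annotation of this process holds another gene, and neither that gene nor other genes of the pathway were analysed here.

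The libraries held 23831351 to 41451418 counts each. RCORA02590 had 180 to 2741 counts per library and RCORA68085 had 495 to 1756, which put the counting error of a single library at 1.91% to 7.45% for RCORA02590 and 2.39% to 4.49% for RCORA68085. These errors cover counting only. Levels are given as counts per 1000000 counts (CPM) after TMM scaling, which corrects total counts for differences in library composition. In 2 *C. linearis* libraries this correction was large. The TMM factor was 0.497 in plant 2 at B3 and 0.664 in plant 2 at B2, against 0.946 to 1.24 in the other 16, and the 50 most abundant genes held 22.8% and 15.6% of their counts, against 8.11% to 11.2% elsewhere. A list of 6 genes named in the study and taken as pollen wall genes, the only tissue markers that could be identified, split the *C. linearis* libraries at B1. For RCORA14962 among them, the study's text names only lipid metabolism, and RCORA205649 did not pass the filter on low counts. The study named the genes of this list for differences between the species in these same libraries. A high sum in *C. linearis* at B1 is thus not independent of that choice. The summed level of the list was 27.7, 1421 and 3276 CPM in *C. linearis* plants 1, 2 and 3 at B1, and 17.5 to 44.2 CPM in the 15 libraries of all other groups, with 0 to 2 of the 6 genes lacking any count in a library. Plants 2 and 3 at B1 thus stood apart, and plant 1 lay within the range of the other groups. Reads of both species were aligned to the *C. rattanii* genome. The part of alignment in any difference in level between the species was not tested.

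RCORA02590 was most abundant in late buds of *C. linearis* and least abundant in late buds of *C. rattanii*. In *C. linearis* it had 10.8, 21.1 and 22.4 CPM at B1 in plants 1, 2 and 3, then 24.9, 20.3 and 51.4 CPM at B2, and 112, 102 and 65.7 CPM at B3. All 3 late-bud libraries lay above all 6 earlier ones, while B1 and B2 overlapped. In *C. rattanii* the same gene had 23.9, 18.9 and 11.0 CPM at B1, then 22.8, 11.5 and 30.9 CPM at B2, and 5.58, 10.5 and 5.76 CPM at B3. Here the 3 late-bud libraries lay below all 6 earlier ones, although plant 2 at B3 was within 1 CPM of the lowest B1 library. The group means were 18.1 ± 6.35, 32.2 ± 16.8 and 93.2 ± 24.3 CPM at B1, B2 and B3 in *C. linearis*, and 17.9 ± 6.49, 21.7 ± 9.76 and 7.29 ± 2.81 CPM at the same stages in *C. rattanii* (SD, n = 3 plants each). In bulk tissue, fewer cells that express a gene and less RNA per cell cannot be told apart.

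RCORA68085 moved within a narrower range. In *C. linearis* it had 22.5, 22.6 and 20.5 CPM at B1 in plants 1, 2 and 3, then 20.4, 28.4 and 36.6 CPM at B2, and 48.2, 51.9 and 34.8 CPM at B3. The late buds of all 3 plants lay above every B1 library, and plant 3 reached its highest level at B2 rather than B3. In *C. rattanii* it had 23.3, 40.9 and 40.6 CPM at B1, then 26.8, 45.0 and 26.2 CPM at B2, and 24.3, 19.5 and 19.5 CPM at B3. The B3 libraries were below every B2 library but overlapped those of B1, because plant 1 differed little between stages. The group means were 21.8 ± 1.19, 28.5 ± 8.11 and 45.0 ± 8.96 CPM at B1, B2 and B3 in *C. linearis*, and 34.9 ± 10.1, 32.7 ± 10.7 and 21.1 ± 2.76 CPM in *C. rattanii* (SD, n = 3 plants each).

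**Figure D1:**
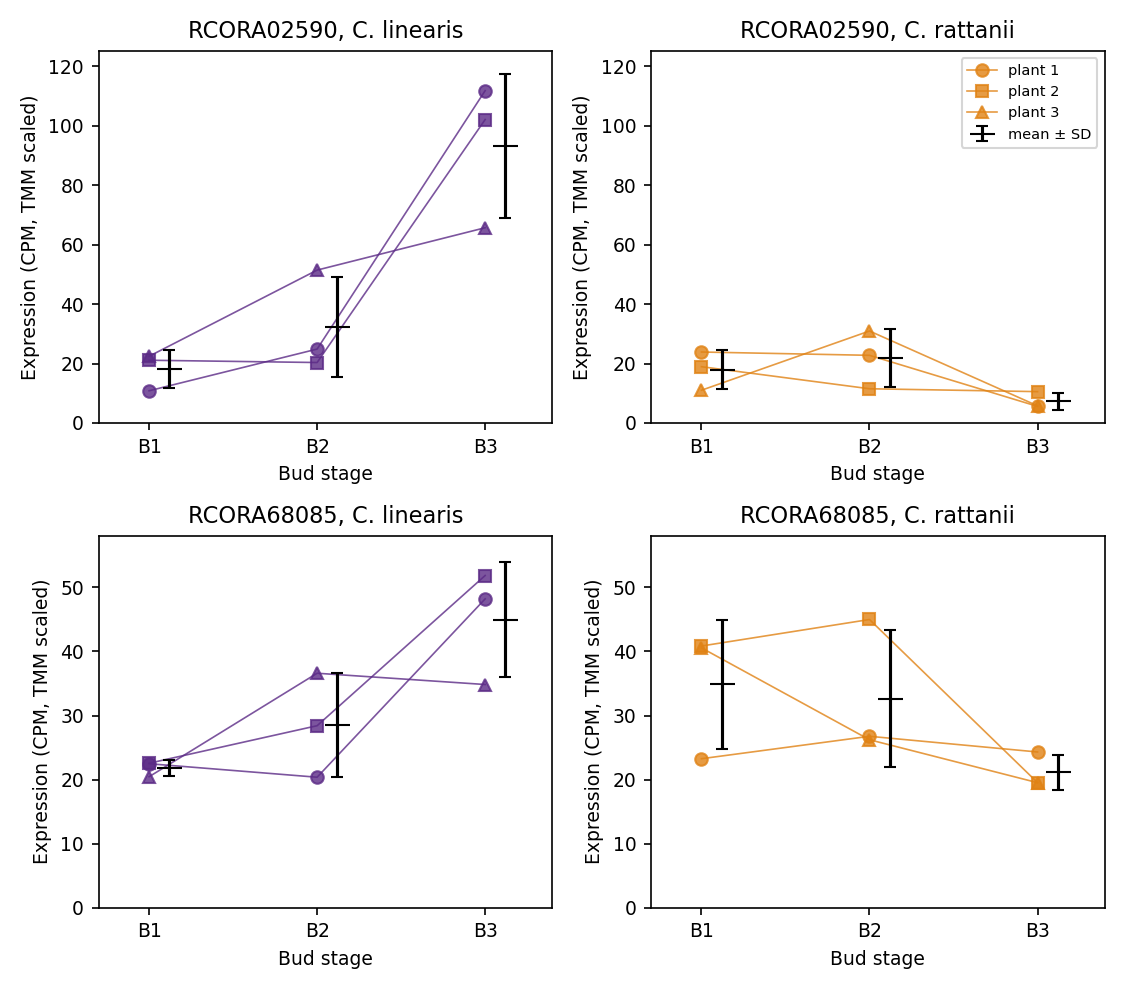
Expression of RCORA02590 (upper panels) and RCORA68085 (lower panels) in TMM-scaled CPM by bud stage, with *C. linearis* on the left and *C. rattanii* on the right. Symbols joined by a line are the libraries of 1 plant and black bars are the mean ± SD of 3 plants; RCORA02590 reaches 65.7 to 112 CPM in *C. linearis* at B3, against 5.58 to 10.5 CPM in *C. rattanii*.

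Ranked by mean level, RCORA02590 ran in the order *C. linearis* B3, *C. linearis* B2, *C. rattanii* B2, *C. linearis* B1, *C. rattanii* B1 and *C. rattanii* B3. Only the outer steps of this order separated groups whose ranges did not overlap. The mean in *C. linearis* B3 was 2.89 times that in *C. linearis* B2, and the mean in *C. rattanii* B1 was 2.46 times that in *C. rattanii* B3. The 4 groups in between overlapped with their neighbours. With total counts in place of TMM scaling, the ranges of *C. linearis* B3 and *C. linearis* B2 overlapped as well, since plant 2 at B3 then stood at 50.7 CPM and plant 3 at B2 at 54.0 CPM. For RCORA68085 the order was *C. linearis* B3, *C. rattanii* B1, *C. rattanii* B2, *C. linearis* B2, *C. linearis* B1 and *C. rattanii* B3, and every pair of neighbours overlapped. Total counts put *C. rattanii* B1 and *C. rattanii* B2, at 39.1 and 37.3 CPM, ahead of *C. linearis* B3 at 35.8 CPM.

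The change across bud development was tested within each species with edgeR's quasi-likelihood test, adjusted over all 27837 genes by the method of Benjamini and Hochberg with a threshold of 0.01. RCORA02590 rose between B1 and B3 in *C. linearis* by 2.36 on the log2 scale (SE 0.47, 95% confidence interval 1.35 to 3.37, edgeR adjusted p = 0.0065), or 5.14-fold. RCORA68085 did not pass, with a difference of 1.04 (SE 0.28, interval 0.44 to 1.65, edgeR adjusted p = 0.0256), or 2.06-fold. So 1 of the 2 genes was called higher, against 2.16% of all genes tested, and the median change of all genes was -0.03. The changes of RCORA02590 and RCORA68085 stood at the 93.0 and 82.4 percentiles of all genes. Both genes were higher at B3 than at B1 in all 3 *C. linearis* plants, RCORA02590 by 3.36, 2.27 and 1.55 in plants 1, 2 and 3, and RCORA68085 by 1.1, 1.2 and 0.77 (log2). The values of plant 2 depended on the scaling. With total counts they were 1.08 for RCORA02590 and 0.01 for RCORA68085, so the latter hardly differed between B1 and B3 in that plant.

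The call for RCORA02590 lay close to the threshold. With plant as a block, which uses that the 3 stages came from the same plants, the change was 2.45 (edgeR adjusted p = 0.0216), and the number of genes called in either direction was 333 in place of 1192. It was also lost with total counts, where the change of RCORA02590 was 1.91 (edgeR adjusted p = 0.0244) and the median change of all genes shifted by -0.39, and without plant 2 of *C. linearis*, which carries the 2 libraries of unusual composition, where it was 2.46 (edgeR adjusted p = 0.0603) and only 2 genes were called. DESeq2, the tool of the study, placed both genes past the threshold, with changes of 2.42 for RCORA02590 (DESeq2 adjusted p = 1.09e-05) and 1.1 for RCORA68085 (DESeq2 adjusted p = 0.00367), where 7.35% of genes were called higher. Of 24 edgeR fits with a library or plant left out, 12 kept RCORA02590 past the threshold. It was lost without any 1 of the 3 *C. linearis* libraries at B1, without plant 1 or 2 of *C. linearis* at B3, without plant 2 at B1 or plant 1 at B2 of *C. rattanii*, without any whole plant of *C. linearis*, and without plant 1 or 2 of *C. rattanii*, with changes between 1.95 and 2.74 and adjusted p up to 0.0603. Without plant 1 at B1, whose pollen wall genes were far below those of plants 2 and 3, the change of RCORA02590 was 2.12 (edgeR adjusted p = 0.0222) and that of RCORA68085 was 1.08 (edgeR adjusted p = 0.0477).

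The change was also fitted for each of the 2 steps of development. Between B1 and B2 in *C. linearis*, RCORA02590 differed by 0.83 (interval -0.14 to 1.8, edgeR adjusted p = 0.324) and RCORA68085 by 0.38 (interval -0.22 to 0.98, edgeR adjusted p = 0.453). Between B2 and B3 the differences were 1.53 (interval 0.55 to 2.52, edgeR adjusted p = 0.0726) and 0.66 (interval 0.06 to 1.26, edgeR adjusted p = 0.193). Neither step passed the threshold for either gene, and the difference between the steps was not tested. Which step had the larger value depended on the plants. Without plant 2 the steps of RCORA02590 were 1.23 and 1.23, and without plant 1 those of RCORA68085 were 0.60 from B1 to B2 and 0.41 from B2 to B3. The plants did not share a course. From B2 to B3, RCORA02590 was higher by 2.17 and 2.32 in plants 1 and 2 and by 0.35 in plant 3, whose level had already been high at B2. A test confined to the plants, in which the stages were exchanged within each plant in all possible ways, gave a slope of 1.2 per stage for RCORA02590 (two-sided exact permutation p = 0.0185) and of 0.51 for RCORA68085 (two-sided exact permutation p = 0.037). With total counts the slope of RCORA68085 was 0.28 (two-sided exact permutation p = 0.157).

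In *C. rattanii* both genes had lower means at B3 than at B1, and neither passed. RCORA02590 differed by -1.30 (SE 0.46, interval -2.28 to -0.32, edgeR adjusted p = 0.347) and RCORA68085 by -0.72 (SE 0.28, interval -1.33 to -0.12, edgeR adjusted p = 0.416). The per-plant differences were -2.08, -0.84 and -0.93 for RCORA02590 in plants 1, 2 and 3, all of 1 sign. Those of RCORA68085 were 0.06, -1.06 and -1.05, with plant 1 apart from the others. By step, RCORA02590 differed by 0.28 from B1 to B2 and by -1.58 from B2 to B3 (interval -2.57 to -0.59, edgeR adjusted p = 0.497). RCORA68085 differed by -0.10 from B1 to B2 and by -0.63 from B2 to B3 (interval -1.23 to -0.03, edgeR adjusted p = 0.717). Neither step passed for either gene. Few genes of any kind were called in this species. Between B3 and B1 edgeR called 0.0108% of genes lower, and for a change at any stage it called 0 genes, with 2340 at an unadjusted p under 0.05 and 249 called by DESeq2. By DESeq2 the difference between B3 and B1 was -1.27 for RCORA02590 (DESeq2 adjusted p = 0.171) and -0.70 for RCORA68085 (DESeq2 adjusted p = 0.324). The slopes per stage within plants were -0.64 (two-sided exact permutation p = 0.12) and -0.34 (two-sided exact permutation p = 0.0926).

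**Figure D2:**
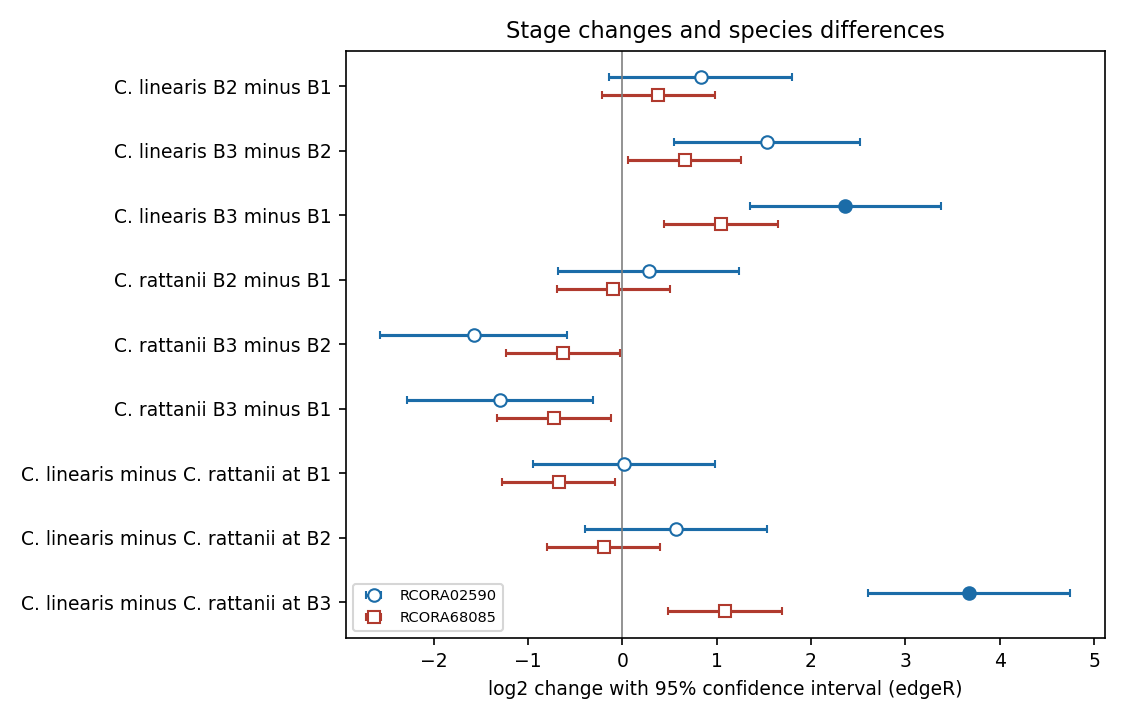
Log2 changes between stages within each species and log2 differences of *C. linearis* minus *C. rattanii* at each stage, with 95% confidence intervals from edgeR, for RCORA02590 (circles) and RCORA68085 (squares). Filled symbols passed an adjusted p of 0.01, which only RCORA02590 did, between B3 and B1 in *C. linearis* (2.36) and between the species at B3 (3.68).

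The species were compared at stages of the same name. The study set these stages in each species by its own limits of bud length and by colours of the organs. Late buds mostly had violet petals in *C. rattanii* and white ones in *C. linearis*. How far stages of the same name match in development was not tested. In the earliest buds the means of RCORA02590, at 18.1 CPM in *C. linearis* against 17.9 CPM in *C. rattanii*, gave a log2 difference of 0.01 with an interval from -0.95 to 0.98 (edgeR adjusted p = 0.985), which leaves room for a difference of nearly 1 on the log2 scale either way. At B2 the difference was 0.57 (interval -0.40 to 1.53, edgeR adjusted p = 0.331). At B3 RCORA02590 was higher in *C. linearis* by 3.68 (SE 0.50, interval 2.60 to 4.75, edgeR adjusted p = 0.000119), or 12.8-fold, and the lowest *C. linearis* library, at 65.7 CPM, stood well above the highest *C. rattanii* library, at 10.5 CPM. Of all genes tested, 6.95% were called higher in *C. linearis* at this stage, and RCORA02590 was at the 91.3 percentile of the differences. It passed in all 33 alternatives that were run, with differences between 3.27 and 4.04 and adjusted p up to 0.0051. The edgeR fit with plant as a block was not run for this comparison. As the B1 difference was only 0.01, the B3 difference is close to the excess in stage change from B1 to B3, 3.66. It is thus tied to the test by which the pair was listed. The alternatives reuse the same libraries, so they show dependence on processing and are not independent evidence. Without plant 2 of *C. linearis* at B3 the difference was 3.59, so the value was about as large without the library of unusual composition.

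For RCORA68085 the species differed by less. At B1 its level was 20.5 to 22.6 CPM in *C. linearis*, against 23.3 to 40.9 CPM in *C. rattanii*, and although the ranges did not overlap, the log2 difference of -0.68 did not pass (interval -1.28 to -0.07, edgeR adjusted p = 0.0834). At B2 the difference was -0.20 (interval -0.80 to 0.40, edgeR adjusted p = 0.591). At B3 its level was 34.8 to 51.9 CPM in *C. linearis*, against 19.5 to 24.3 CPM in *C. rattanii*, and the difference of 1.09 (SE 0.28, interval 0.48 to 1.70), or 2.13-fold, missed the threshold narrowly in edgeR (adjusted p = 0.0108). DESeq2 called it, with 14.3% of all genes called higher (1.14, DESeq2 adjusted p = 0.00129), as did edgeR with the size factors of DESeq2 (1.14, edgeR adjusted p = 0.00932). With total counts it was 0.65 (edgeR adjusted p = 0.189), and without plant 2 of *C. linearis* at B3 it was 0.97. It passed in edgeR in 6 of 24 fits with a library or plant left out, namely *C. linearis* plant 1 or 3 at B2, plant 3 at B3 or the whole of plant 3, and *C. rattanii* plant 1 at B1 or plant 2 at B2.

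Averaged over the 3 stages, RCORA02590 was higher in *C. linearis* by 1.42 (SE 0.27, interval 0.85 to 1.99, edgeR adjusted p = 0.000441), or 2.68-fold. This fit had no plant term, so the SE, interval and adjusted p took the 3 libraries of a plant as independent. The average rests mostly on B3, as the differences at B1 and B2 were 0.01 and 0.57. Average differences between the species were common, since 22.2% of all genes were called higher in *C. linearis* in this comparison. The mean log2 level of RCORA02590 over the stages was higher in all 3 *C. linearis* plants, at 4.96, 5.14 and 5.41, than in the 3 *C. rattanii* plants, at 3.86, 3.73 and 3.65 (log2 CPM). With plants as the units the two-sided exact permutation p was 0.1, the smallest that 3 plants against 3 allow. RCORA68085 had an average difference of 0.07 (interval -0.27 to 0.42, edgeR adjusted p = 0.722), with the plants of the species interleaved at 4.81, 5.01 and 4.89 in *C. linearis* and 4.63, 5.05 and 4.78 in *C. rattanii* (two-sided exact permutation p = 0.6). The sign of this small average turned with upper quartile scaling (-0.03) and with total counts (-0.20).

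The difference between species in stage change is what brought the pair into the study's list, and its values are given for description. From B1 to B3, the change in *C. linearis* exceeded that in *C. rattanii* by 3.66 for RCORA02590 (interval 2.25 to 5.07, edgeR adjusted p = 0.038) and by 1.77 for RCORA68085 (interval 0.91 to 2.62, edgeR adjusted p = 0.054). From B2 to B3 the excess was 3.11 (edgeR adjusted p = 0.0863) and 1.29 (edgeR adjusted p = 0.173), and from B1 to B2 it was 0.55 (edgeR adjusted p = 0.797) and 0.48 (edgeR adjusted p = 0.719). For species by stage as a whole, the adjusted p in edgeR was 0.0586 for RCORA02590 and 0.102 for RCORA68085. In that test edgeR called 0 genes of the table at the threshold of 0.01, with 4924 at an unadjusted p under 0.05. It called 3 genes with plant as a block and 133 without *C. linearis* plant 1 at B1, the B1 library of that species without high pollen wall genes. DESeq2 with all libraries called 855 or 3.25% of the genes it tested. DESeq2 also called a positive excess from B1 to B3 in both members, against 2.13% of genes, and one from B2 to B3 in RCORA02590 alone, against 0.965% of genes. In the test of species by stage both members were called, RCORA02590 with a DESeq2 adjusted p of 3.27e-05 and RCORA68085 with one of 0.00557. Per plant, the change from B1 to B3 was larger in every *C. linearis* plant than in any *C. rattanii* plant for both genes, with mean differences of 3.68 and 1.70 (two-sided exact permutation p = 0.1 each, the smallest possible). With total counts this separation was kept for RCORA02590 only. The changes of RCORA68085 were then 1.02, 0.01 and 0.67 in *C. linearis* plants 1, 2 and 3. In *C. rattanii* they were 0.11, -1.14 and -1.18 (two-sided exact permutation p = 0.2).

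**Figure D3:**
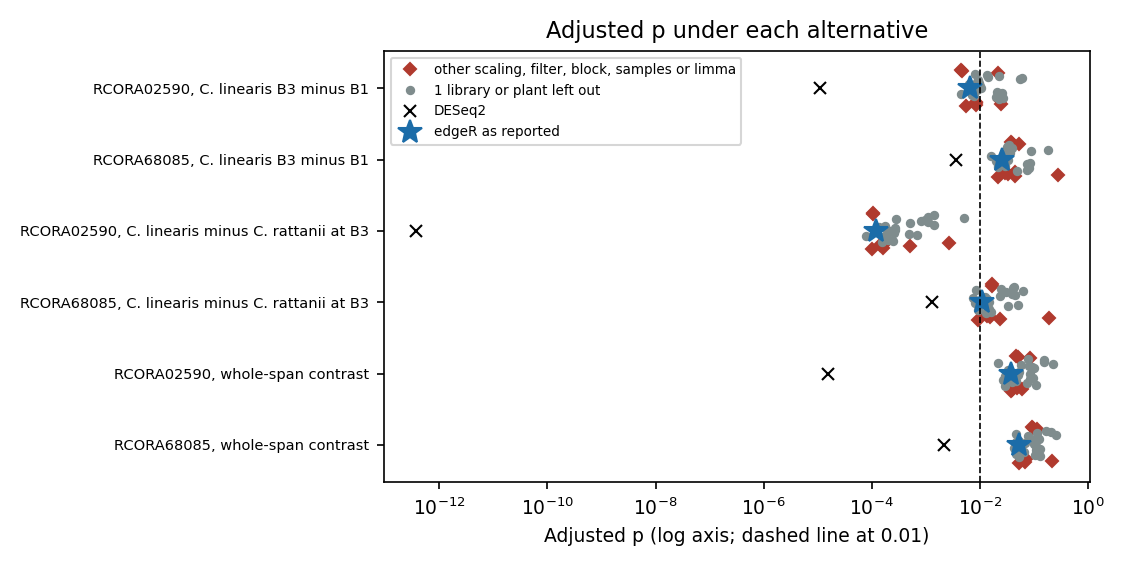
Adjusted p of 6 results on a log axis, as reported from edgeR (stars), from DESeq2 (crosses), with 1 library or plant left out (grey dots) and under other scalings, filters, blocks, sample sets or limma (diamonds). The dashed line marks 0.01; the difference between the species in RCORA02590 at B3 stays left of it throughout, while the other 5 lie between 0.0065 and 0.054 as reported from edgeR and left of the line in DESeq2.

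The balance of the 2 genes was followed as the ratio of their counts within each library, which does not depend on library scaling. Gene length was not used, so the ratio says nothing of which gene is the more abundant per length, only how their balance differed between libraries. In *C. linearis* the ratio of RCORA02590 to RCORA68085 was 0.481, 0.935 and 1.1 at B1 in plants 1, 2 and 3, then 1.22, 0.715 and 1.40 at B2, and 2.32, 1.97 and 1.88 at B3. All late buds lay above all earlier ones. In *C. rattanii* the ratio was 1.03, 0.463 and 0.271 at B1, then 0.850, 0.256 and 1.18 at B2, and 0.229, 0.539 and 0.295 at B3. The plants followed different courses there, and the stages overlapped. The slope of the log2 ratio per stage was 0.69 in *C. linearis* (two-sided exact permutation p = 0.0278) and -0.30 in *C. rattanii* (two-sided exact permutation p = 0.481). The mean ratio at B3 was 2.06 ± 0.230 in *C. linearis*, against 0.355 ± 0.163 in *C. rattanii* (SD, n = 3 plants each), with no overlap. The plant means of the log2 ratio differed by 1.34 between the species (two-sided exact permutation p = 0.1, the smallest possible).

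**Figure D4:**
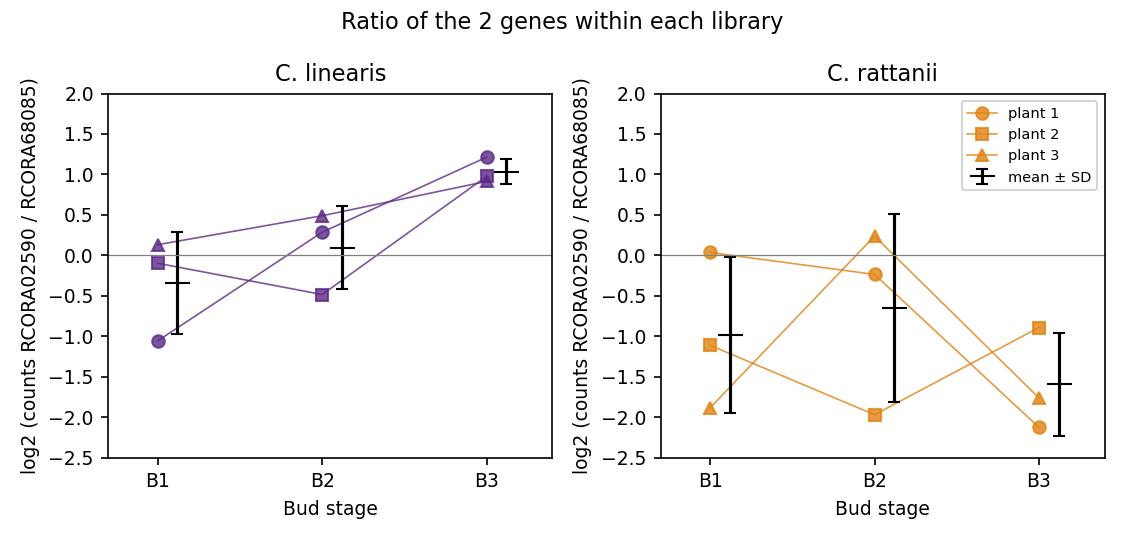
Log2 ratio of RCORA02590 to RCORA68085 counts within each library by bud stage, with *C. linearis* on the left and *C. rattanii* on the right; symbols joined by a line are 1 plant and black bars are the mean ± SD of 3 plants. In *C. linearis* the B3 ratios are all above those of B1 and B2, and in *C. rattanii* the stages overlap.

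Likeness of pattern was measured as Pearson's r of log2 CPM over the 18 libraries, which share plants, species and stages, against 27836 other genes. The pair resembled each other only in part. Their r was 0.55 (Spearman's rho 0.46), which placed RCORA68085 at rank 2835 among the genes most like RCORA02590, and RCORA02590 at rank 791 among those most like RCORA68085. After each species was centred on its own mean, r was 0.62. The genes nearest to RCORA02590 were RCORA151974 (r = 0.92) and RCORA91936 (r = 0.92), and 4 genes in all reached 0.9. RCORA151974 averaged 7.93, 8.17 and 30.3 CPM at B1, B2 and B3 in *C. linearis*, and 3.57, 5.86 and 1.97 CPM in *C. rattanii*. RCORA91936 averaged 8.64, 11.3 and 20.0 CPM in *C. linearis*, and 7.74, 9.15 and 6.11 CPM in *C. rattanii*. Both shared with RCORA02590 the peak in late buds of *C. linearis* and the minimum in late buds of *C. rattanii*. They were picked for a high r over these libraries, so such likeness follows from the choice. RCORA151974 differed between the species already at B1, where the means of RCORA02590 were close.

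The genes nearest to RCORA68085 were RCORA61732 (r = 0.84) and RCORA26005 (r = 0.83), and no gene reached 0.9. RCORA61732 averaged 42.1, 70.2 and 127 CPM at B1, B2 and B3 in *C. linearis*, and 60.8, 78.3 and 52.0 CPM in *C. rattanii*. RCORA26005 averaged 31.0, 35.6 and 47.2 CPM in *C. linearis*, and 51.4, 36.9 and 29.7 CPM in *C. rattanii*. Like RCORA68085, both had a lower mean in *C. linearis* than in *C. rattanii* at B1 and a higher one at B3. Here too the likeness follows from the choice by r. In *C. rattanii* the highest mean of RCORA61732 was at B2, while that of RCORA68085 was at B1. With Spearman's rho, or after centring on species, other genes came first for both members, so the nearest genes depended on the measure. The functions of these 4 genes were not given in the sources used here.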

How the data were processed

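For both species the authors used their assembly of *C. rattanii*, aligning with STAR in 2-pass mode and summarising reads per gene model with featureCounts. FastQC 0.11.9, STAR and featureCounts are also named in the submitters' processing notes. The authors deposited raw counts, whole numbers with no normalization. How strand and multi-mapping reads were handled was not given in the sources used, so reads shared with a near-identical copy or an overlapping gene may be included. The organism label names *C. rattanii* for every library, and species, stage and plant were taken from the sample labels. Another 2 columns, each named for a whole species, were left out. Libraries within a group differed by more than sampling noise (chi-square per degree of freedom 49.5 to 609 over 18 pairs), so none was merged.

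Counts were analysed in R 4.3.3 with edgeR 4.0.16 (filterByExpr on the 6 groups, TMM, robust quasi-likelihood F-tests on species, stage and species*stage over all 18 libraries), and p-values were adjusted over 27837 genes. Standard errors follow from the F statistic. The main fit had no plant term, like the model of the study. CPM are TMM-scaled, and log2 CPM used a prior count of 2. Exact permutation tests (12 in all, not adjusted) exchanged stages within plants or plants between species. Plant is a pairing within a species because 3 libraries came from the same plant, although the deviations of same-plant libraries from their group means had a median correlation of -0.05 over 18 pairs (-0.45 to 0.64). The edgeR test was also run on simulated counts that held no plant effect, and its outcome there is not quoted.

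Alternatives were DESeq2 1.42.0, limma-voom 3.58.1, RLE, upper quartile and total-count scaling, other filters, plant as a block, the libraries of 1 species or stage alone, a prior count of 0.5, and each library or plant left out. In edgeR, plant as a block was not run for differences in level between the species. The genes named are both members and, for each, the 2 genes of highest Pearson's r. Members, lists and tests were chosen with earlier results of these data known. No sequence or gene position was used.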

Additional observations from a re-analysis of the deposited data

Results flagged for a closer look

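For RCORA02590, all 3 *C. linearis* plants were higher at B3 than at B2 (by 2.17, 2.32 and 0.35) and all 3 *C. rattanii* plants were lower (differences of -2.02, -0.13 and -2.41, log2), so every plant of a species lay on the same side of 0. The -0.13 of *C. rattanii* plant 2 lay close to 0. It rests on 449 counts at B2 and 267 at B3, with counting errors of 4.72% and 6.12%. The difference between the species in this change was 3.11 (edgeR adjusted p = 0.0863). From B1 to B3 the split was the same, with changes of 3.36, 2.27 and 1.55 in *C. linearis* and of -2.08, -0.84 and -0.93 in *C. rattanii*, and the difference was 3.66 (edgeR adjusted p = 0.038). Neither difference passed 0.01 in edgeR, and both passed it in DESeq2 (adjusted p = 0.000621 for B2 to B3 and 1.53e-05 for B1 to B3). The pair was listed by the study for such a difference, so the split is a description.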

How the results depend on the processing

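Of 1156 values recomputed under an alternative, 1083 kept their direction and their side of the threshold, or moved by less than a set limit. The threshold was 0.01 for adjusted p and 0.05 for permutation p. The limit was the spread between plants for mean levels and a fixed shift for correlations. Permutation tests between the species cannot give a p below 0.1, so those values could not change side. The count is therefore no measure of stability. RCORA02590 between the species at B3, and averaged over the stages, passed 0.01 in every alternative run. The edgeR fit with plant as a block was not among these, as it was not run for differences in level between the species. The average rests mostly on B3, since the differences at B1 and B2 (0.01 and 0.57) did not pass. The change of RCORA02590 from B1 to B3 in *C. linearis* passed in 19 of 34, and was not past 0.01 with total counts (1.91), with the *C. linearis* libraries alone (2.41) or with plant as a replicate block (2.45). It passed in 12 of 24 fits that left out a library or plant, which gave 1.95 to 2.74. The random plant block in limma-voom, with a consensus correlation of 0.0122 within plants, lost no call of either gene. RCORA68085 passed for that change only in DESeq2 (1.1). At B3 it passed between the species in DESeq2 (1.14), with RLE scaling (1.14) and in 6 of 24 fits with a library or plant left out, which gave 0.97 to 1.24. The excess of *C. linearis* from B1 to B3 passed only in DESeq2, at 3.70 for RCORA02590 and 1.8 for RCORA68085.

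Signs turned only in results that had not passed their threshold, and these were not all small. The species difference of RCORA02590 at B1 was -0.0035 without a filter, -0.0038 with at least 10 counts in all, and -0.27 to 0.28 with a library or plant left out. At B2 such fits gave -0.044 to 0.91, against 0.57 with all libraries. From B1 to B2 in *C. rattanii* they gave -0.32 to 0.68 for RCORA02590 and -0.32 to 0.16 for RCORA68085. The average species difference of RCORA68085 was -0.028 with upper quartile scaling, -0.20 with total counts and -0.039 to 0.15 with a library or plant left out. Its plant means differed by -0.19 with total counts and by -0.0098 to 0.20 with a plant left out. The trend of the log2 ratio in *C. rattanii* was -0.51 to 0.085 with a plant left out, against -0.30 with all plants. With 2 plants of a species the exact permutation test of a stage trend cannot give a p below 0.0556, so those leave-outs say nothing of stability.

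Counts of genes called also depended on the processing. For B3 against B1 in *C. linearis*, edgeR called 1192 genes, DESeq2 3852 and edgeR with plant as a block 333. Between the species at B3, edgeR called 4168 genes and DESeq2 7631, and edgeR without plant 1 of *C. rattanii* called 1457. For species by stage, edgeR called 0 genes, 3 with plant as a block and 133 without *C. linearis* plant 1 at B1, and DESeq2 called 855. The causes of these changes were not tested.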
